A study of Homo sapiens with 36 samples.

Results

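The miRNAs of HT-29 cells, a human colorectal adenocarcinoma line, were compared between 3 CoCl2-treated and 3 control libraries, which were 6 of the 36 libraries of the series and were taken by their labels. CoCl2 was given at 300 µM for 24 h from a stock in water, and the control medium carried 0.5 µl DMSO per ml. The labels call the replicates biological and do not say whether the CoCl2 medium also carried DMSO. The study's methods say so for Caco-2 cells only, so in HT-29 cells a difference in solvent cannot be told apart from CoCl2. HT-29 cells given 5 µM of an oxyquinoline derivative (OD) for 24 h, in medium with 0.5 µl DMSO per ml, were used only to place the response. So were Caco-2 cells of the same series, differentiated for 21 days before the same CoCl2 dose, and mRNA libraries of the same HT-29 treatments. HT-29 is 1 tumour line, so that the 3 libraries of a group are cultures and not donors.

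Hypoxia-inducible factor (HIF) is destroyed after prolyl hydroxylases modify it, and cobalt ions block these enzymes, so CoCl2 is used to mimic low oxygen in cultured cells. A miRNA is cut from a hairpin within a longer transcript, its host. One arm of the hairpin, the major arm, is usually kept in Argonaute and guides silencing through its seed (bases 2 to 8), and the other, the minor arm, is mostly degraded soon after it is made. miR-210 is the best known miRNA of the HIF response, and its host lncRNA MIR210HG is a HIF target as well.

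The mature sequences below carry the results: both arms of miR-210, both hairpins of the MIR193BHG transcript, miR-100-5p with its near twin miR-99a-5p, both arms of the last hairpin of the miR-17-92 cluster, and 4 further miRNAs that changed. They are RefSeq sequences (GRCh38.p14), 5′ to 3′, with the seed in capitals.
miR-210-3p: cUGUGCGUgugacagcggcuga
miR-210-5p: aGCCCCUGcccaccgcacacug
miR-100-5p: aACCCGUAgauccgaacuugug
miR-99a-5p: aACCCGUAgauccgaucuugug
miR-365a-3p: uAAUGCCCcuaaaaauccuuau
miR-365a-5p: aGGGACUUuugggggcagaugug
miR-193b-3p: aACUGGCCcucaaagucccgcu
miR-193b-5p: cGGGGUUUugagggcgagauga
miR-92a-3p: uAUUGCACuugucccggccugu
miR-92a-1-5p: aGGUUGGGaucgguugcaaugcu
miR-671-5p: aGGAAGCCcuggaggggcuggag
miR-22-5p: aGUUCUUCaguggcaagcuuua
miR-4521: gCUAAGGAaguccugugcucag
miR-7974: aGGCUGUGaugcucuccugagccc

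The deposited values were raw counts per mature miRNA. The 3 control libraries held 9580744, 13092513 and 8860459 counts, and CoCl2 replicates 2 and 3 held 10170760 and 8163319. CoCl2 replicate 1 held 34043. In that library 1 count equals 28.4 CPM (counts scaled to a library of 1e6), and a miRNA at 0 counts may have had up to 85.2 CPM (the limit of 3 counts). CPM values of single miRNAs in HT-29 were scaled with edgeR's TMM factors, and sums over several miRNAs by library size alone. Intervals and limits cover counting error only. OD replicate 3 was shallow as well, at 466975 counts, while OD replicates 1 and 2 held 8530934 and 9186519. Of 616 miRNAs tested, 319 had 0 counts in CoCl2 replicate 1, so fold changes of the leading miRNAs are given with and without it.

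CoCl2 replicate 1 also stood apart in content. Of 168 miRNAs for which at least 3 counts were expected from the levels in CoCl2 replicates 2 and 3, 135 lay within the 95% Poisson range of that level. Its counts lay no closer to those libraries than to the controls, with a chi-square per miRNA of 4.90 against CoCl2 replicates 2 and 3 and of 4.39 against the controls. miR-372-3p, a miRNA of pluripotent and germ cells, had 55 counts where 0.831 was expected, and in Caco-2 libraries it averaged 52768 CPM (by library size). A set of 11 miRNAs above 200 CPM in Caco-2 and more than 20 times their level in HT-29 CoCl2 replicates 2 and 3 summed to 6286 CPM in CoCl2 replicate 1, against 1716 to 2544 CPM in the other 8 HT-29 libraries. That excess was 3.32% of the Caco-2 level of the same set, and its part in other values of this library was not tested. These miRNAs were chosen after their values were seen.

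In HT-29 cells CoCl2 raised a small set of miRNAs and lowered another, while the abundant miRNAs of the line moved little. Among 616 miRNAs tested, 30 (4.87%) were called at a Benjamini-Hochberg adjusted p (FDR) below 0.05 in edgeR's quasi-likelihood test with a log2 fold change beyond 1, 14 of them higher (2.27%) and 16 lower (2.60%). Both arms of miR-210 rose, as did all 4 tested arms of MIR193B and MIR365A, miR-100-5p, miR-671-5p and miR-22-5p. miR-92a-1-5p, miR-7974 and miR-4521 fell most among the miRNAs with a mean of at least 50 counts. Without CoCl2 replicate 1, 28 of 637 (4.40%) were called, 15 higher and 13 lower, and 27 of the 30 were among them. Leaving it out moved the log2 fold change of each of the 30 by at most 0.04. Of the 30, 22 had 0 counts in that library. Its few counts weigh little in the fit, so the small shift is no separate support. With no limit on the fold change, 75 of 616 (12.2%) passed, 29 higher and 46 lower. With scaling by library size alone, the median of all tested miRNAs moved from 0.00 to -0.13 on the log2 scale, and the calls split into 7 higher and 19 lower. Without CoCl2 replicate 2, 22 were called, of which 10 were lower, and 16 of the 30 were among them.

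**Figure D1:**
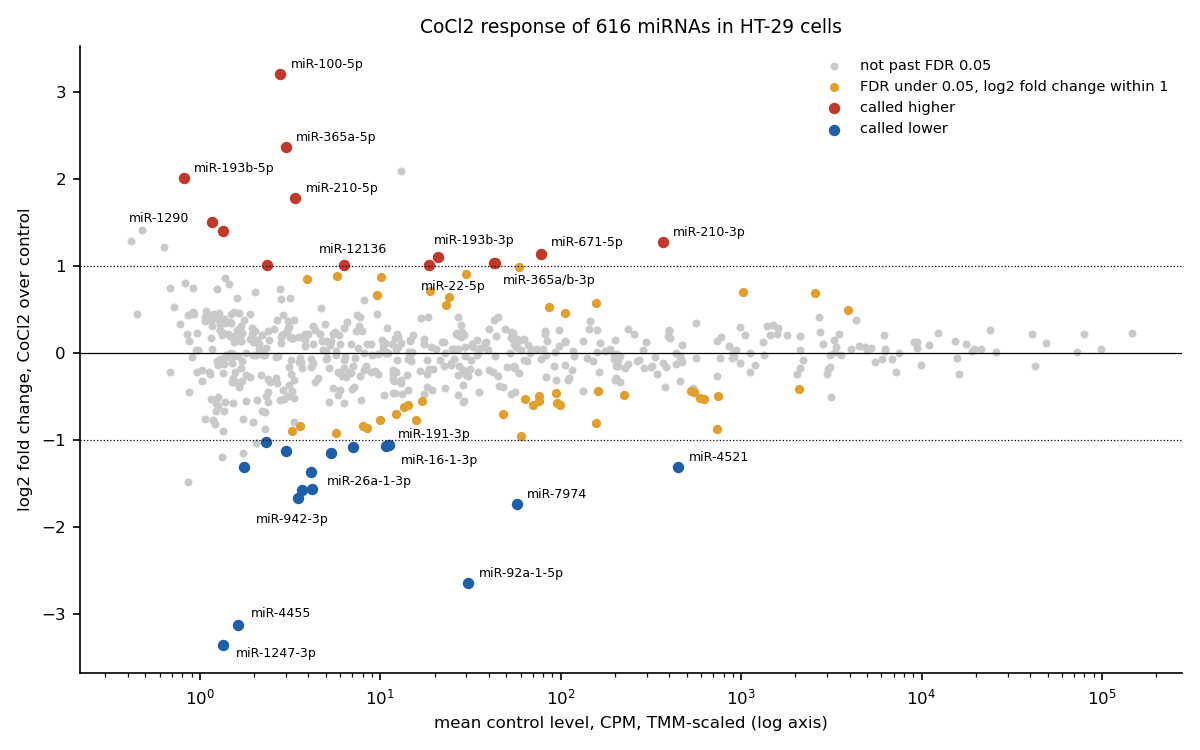
Mean level of each of 616 miRNAs in the 3 HT-29 control libraries (x axis, TMM-scaled CPM, log axis) against its fitted log2 fold change with CoCl2 (y axis). Points are miRNAs, coloured by call, with dotted lines at the fold limit. The called miRNAs lie at and below the level of miR-4521 (448 CPM), and the most abundant miRNAs, at the right, lie near 0.

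The 10 most abundant miRNAs of the controls held 60.2% of the control CPM, and none of them passed the FDR threshold. They were miR-21-5p, miR-10a-5p, miR-7-5p, miR-200b-3p, miR-192-5p, miR-200a-3p, let-7f-5p, let-7i-5p, miR-30d-5p and let-7a-5p, and their log2 fold changes ran from -0.16 to 0.26. miR-192 and the miR-200 family are epithelial miRNAs of the gut. The 8 tested markers of colon epithelium summed to between 199858 and 231266 CPM in each of the 6 libraries, and 0 of the 8 were called or passed the FDR threshold. Markers of smooth muscle and fibroblasts (miR-143 and miR-145) summed to at most 1.22 CPM in the 5 deep libraries and had 0 counts in CoCl2 replicate 1. Blood cell markers summed to 198, 139 and 193 CPM in the controls. In CoCl2 replicates 2 and 3 they summed to 134 and 117 CPM, below every control, and only the shallow CoCl2 replicate 1 (176 CPM) overlapped the controls. Of these markers, 1 of 4 tested passed the FDR threshold, miR-142-3p (-0.57, FDR 0.027). Of 2 endothelial markers, miR-126-5p passed (0.85, FDR 0.027). Their part in other results was not tested.

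miR-210 was the most abundant miRNA called higher. miR-210-3p stood at 378, 347 and 381 CPM in the controls (mean 369 ± 19.0 SD, n = 3) and at 994, 919 and 838 CPM in CoCl2 replicates 1 to 3. All 3 CoCl2 libraries lay above all 3 controls, and replicate 1 rested on 35 counts (exact 95% interval 692 to 1382 CPM). Its log2 fold change was 1.28 ± 0.14 SE (2.42-fold, FDR 5.5e-06), and 1.27 ± 0.15 without replicate 1 (FDR 1.5e-05). The minor arm, miR-210-5p, rose from 3.98, 3.16 and 2.98 CPM to 9.75 and 13.6 CPM in replicates 2 and 3, a log2 fold change of 1.78 ± 0.21 (FDR 1.3e-05, and 1.79 without replicate 1). Replicate 1 held a single count of it. The hairpin MIR210 lies at chr11:568089-568198 on the minus strand, within an intron of MIR210HG. MIR210HG itself rose from 6.21 to 42.7 CPM in the mRNA libraries, a log2 fold change of 2.80 ± 0.09.

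The hairpins MIR193B and MIR365A share the lncRNA MIR193BHG (chr16:14303967-14309371, plus strand), and every tested arm of both was called higher. miR-365a-5p, a minor arm, rose from 2.41, 3.40 and 3.20 CPM to 16.2 and 15.0 CPM in CoCl2 replicates 2 and 3, a log2 fold change of 2.36 ± 0.20 (5.14-fold, FDR 1.7e-07), and 2.39 without replicate 1. miR-365a-3p, the major arm, rose from 42.9, 35.6 and 50.4 CPM to 91.8 and 82.2 CPM, and replicate 1 lay at 114 CPM on 4 counts (interval 31.0 to 291). Its log2 fold change was 1.03 ± 0.15 (FDR 0.00013) and 1.04 without replicate 1, and all 3 CoCl2 libraries lay above the controls. The entry miR-365b-3p has the same mature sequence and nearly the same counts, so the calls of the 2 entries are 1 measurement, and reads of MIR365A and MIR365B cannot be told apart. miR-193b-3p, a major arm, went from 17.5, 18.5 and 26.4 CPM to 48.8 and 41.6 CPM (log2 fold change 1.10 ± 0.20, FDR 0.0010, and 1.15 without replicate 1). miR-193b-5p went from 0.648, 1.05 and 0.746 CPM to 3.39 CPM in both deep CoCl2 libraries (2.01 ± 0.32, FDR 0.00030). Of the 4 arms, only miR-365a-3p had counts in CoCl2 replicate 1, and limma-trend on log2(CPM + 1) with that library, which gives its 0 full weight, turned miR-193b-3p to -0.74 (FDR 0.71). MIR193BHG rose from 0.381 ± 0.172 to 3.53 ± 1.08 CPM (SD, n = 3), a log2 fold change of 3.29.

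miR-100-5p had the highest log2 fold change of the miRNAs called. It stood at 2.41, 2.75 and 3.20 CPM in the controls and at 28.6 and 23.2 CPM in CoCl2 replicates 2 and 3 (279 and 178 counts), and replicate 1 held 0 counts. The log2 fold change was 3.21 ± 0.23 with all libraries (9.23-fold, FDR 2.3e-08) and 3.24 ± 0.21 without replicate 1. Where replicate 1 is concerned the change was not measurable, since 0.913 counts were expected there at the level of the other 2. miR-99a-5p has the same seed and differs from miR-100-5p at 1 base, A16U, counted from the 5′ end of miR-100-5p. miR-99a-5p stood at 2.78, 2.83 and 3.94 CPM in the controls and at 3.28 and 2.61 CPM in CoCl2 replicates 2 and 3, with a log2 fold change of -0.09 ± 0.25, and the abundant miR-99b-5p of the same seed had 0.12. The hairpin MIR100 (chr11:122152229-122152308, minus strand) lies in an intron of MIR100HG, whose counts in the mRNA libraries were at most 2 in all 6. miR-125b-5p, which can come from the same transcript or from MIR99AHG, had a log2 fold change of 0.31 ± 0.19 (FDR 0.36).

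miR-671-5p and miR-22-5p rose together with the transcripts that carry them. miR-671-5p lay at 78.8, 65.4 and 88.5 CPM in the controls and at 167 and 181 CPM in CoCl2 replicates 2 and 3 (log2 fold change 1.14 ± 0.14, FDR 1.8e-05, and 1.18 without replicate 1), while replicate 1 had 3 counts (85.2 CPM, interval 17.6 to 249) and overlapped the controls. The other arm, miR-671-3p, had a log2 fold change of 0.98 ± 0.18 (FDR 0.0010), just inside the fold limit. MIR671 lies in an exon of CHPF2, a chondroitin synthase gene, whose mRNA rose from 33.0 to 106 CPM (1.68). miR-22-5p, the minor arm of MIR22, went from 17.5, 16.7 and 21.5 CPM to 28.4, 38.8 and 35.7 CPM, with no overlap of the groups and with 1 count in replicate 1 (log2 fold change 1.00 ± 0.15, FDR 0.00016, and 1.03 without replicate 1). Its major arm miR-22-3p went from 1023 ± 102 CPM to between 1619 and 1709 CPM in the 3 CoCl2 libraries (0.70 ± 0.11, FDR 0.00030). MIR22HG rose from 7.60 to 81.4 CPM, a log2 fold change of 3.38. miR-12136, whose entry lies at chr1:632615-632685 in a pseudogene, went from 6.66, 4.94 and 7.36 to 13.2 and 12.1 CPM (1.01 ± 0.24), and it passed no longer without CoCl2 replicate 2. miR-100-5p, miR-671-5p and miR-12136 are outside the naming rule, because replicate 1 overlapped the controls, and they and their hairpin partners were named after their values were seen.

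The remaining miRNAs called higher rested on means below 50 counts. They were miR-1290 (log2 fold change 1.51), miR-125b-2-3p (1.40) and miR-9-5p (1.01), at 1.17, 1.34 and 2.37 CPM in the controls. Reads of miR-1290 and of miR-1246 (0.90, FDR 0.0020) can match other small RNAs. miR-9-5p is a neuronal miRNA at 865 CPM (by library size) in Caco-2, and its call was the same without CoCl2 replicate 1 (1.01, FDR 0.018) and was lost without replicate 2. The call of miR-1290 was lost without replicate 3.

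**Figure D2:**
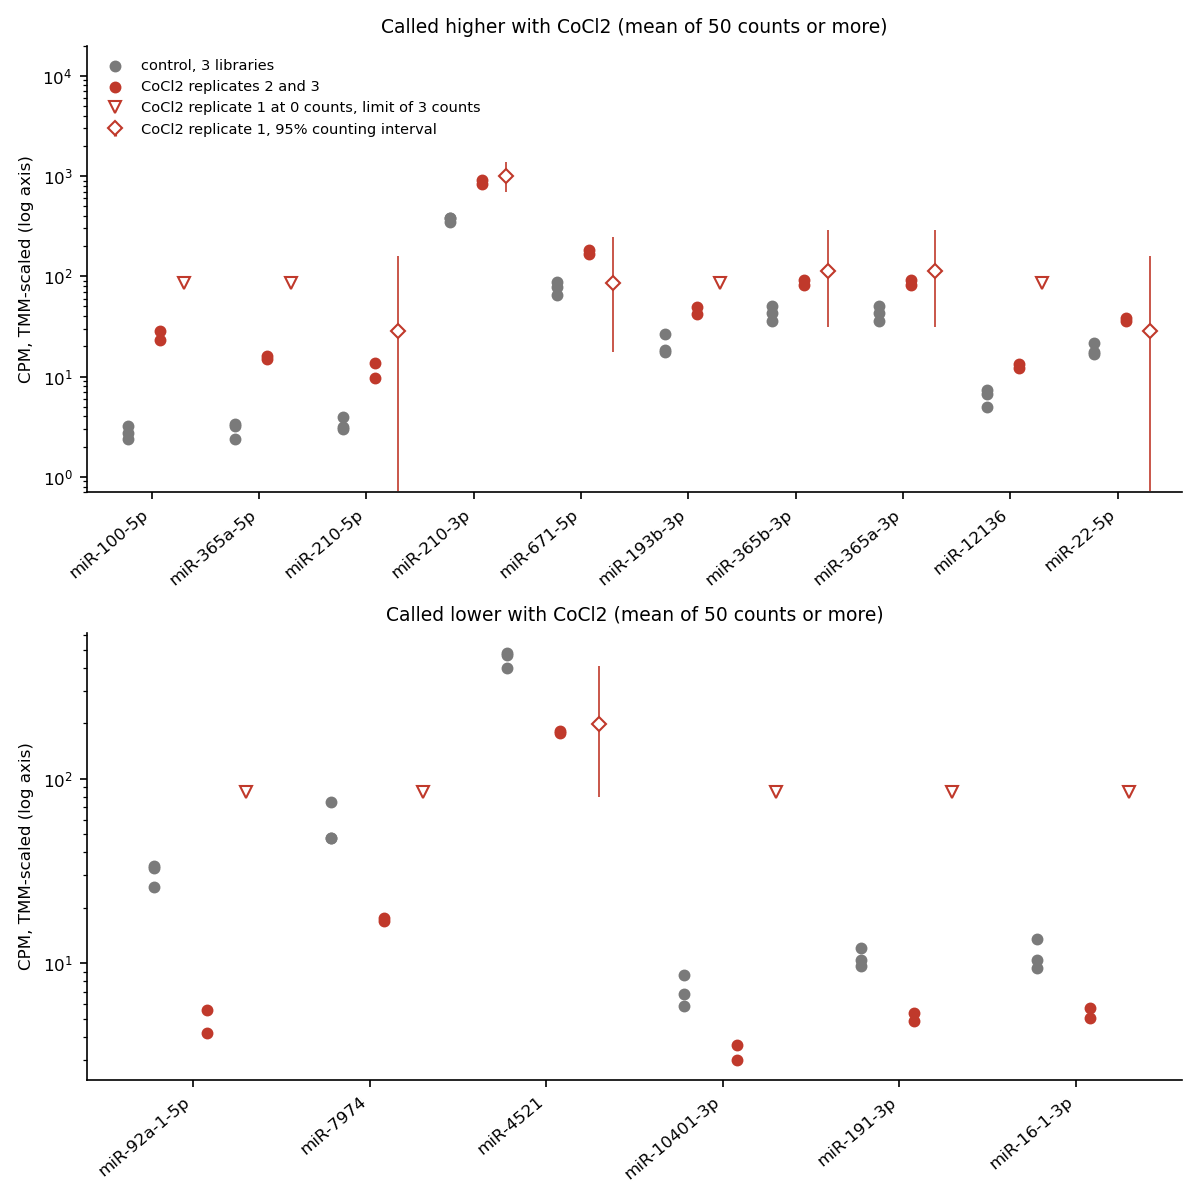
TMM-scaled CPM (y axis, log axis) of the called miRNAs with a mean of at least 50 counts, for each library. Grey points are the 3 controls and filled red points CoCl2 replicates 2 and 3; open diamonds are CoCl2 replicate 1 with its exact 95% interval, and open triangles mark the limit of 85.2 CPM where it had 0 counts. Replicates 2 and 3 lie apart from the controls for every miRNA shown, and the interval of replicate 1 lies clear of the control mean for miR-210-3p and miR-4521.

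The miR-17-92 cluster, a growth-promoting cluster of 6 hairpins in the transcript MIR17HG (chr13:91350605-91351391, plus strand), was lower in parts. All 11 tested arms had a negative log2 fold change (median -0.27, against 0.00 over all tested miRNAs), but 2 were called lower, against 2.60% of all miRNAs tested, and both were minor arms. miR-92a-1-5p stood at 33.7, 25.9 and 32.8 CPM in the controls and at 5.54 and 4.17 CPM in CoCl2 replicates 2 and 3. It fell by 2.65 ± 0.23 on the log2 scale (6.28-fold, FDR 1.8e-07), and by 2.63 ± 0.23 without replicate 1, in which 0.171 counts were expected. The major arm of the same hairpin, miR-92a-3p, stood at 15238, 16929 and 14899.6 CPM in the controls and at 14171, 14984 and 15784 CPM with CoCl2, so that the groups overlapped (-0.06 ± 0.10, FDR 0.78). miR-19b-1-5p fell by 1.38 ± 0.34 (FDR 0.011) from 4.12 CPM, and miR-18a-5p fell by 0.49 (FDR 0.033, and 0.051 without replicate 1). MIR17HG fell from 5.42, 6.23 and 4.84 CPM to 0.672, 1.04 and 0.905 CPM in the mRNA libraries, by 2.63 ± 0.25 on the log2 scale. miR-92a-3p can also be cut from a hairpin of the related miR-106a-363 cluster, of which 0 of 3 tested arms were called, against 4.87% of all miRNAs tested. Among its arms not tested, miR-92a-2-5p and miR-106a-3p had 0 counts in every control and CoCl2 library. miR-363-3p had 1 count, in control replicate 3. The part of this cluster in the level of miR-92a-3p was not tested.

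miR-4521 and miR-7974 were the most abundant miRNAs called lower. miR-4521 went from 479, 397 and 468 CPM to 199, 182 and 176 CPM in CoCl2 replicates 1 to 3, with no overlap and with 7 counts in replicate 1 (interval 79.9 to 410 CPM). It fell by 1.32 ± 0.15 (FDR 5.8e-06), and by 1.31 without replicate 1. miR-7974 went from 47.9, 75.0 and 47.9 CPM to 16.8 and 17.6 CPM and fell by 1.74 ± 0.20 (FDR 1.0e-05), and by 1.71 without replicate 1. Its entry lies at chr19:11495544-11495622 in an intron of ZNF653, whose mRNA changed the other way (1.10 ± 0.19) and was not called with scaling by library size alone (0.47). The minor arms miR-191-3p and miR-16-1-3p fell by 1.07 ± 0.20 and 1.06 ± 0.20, from 10.7 and 11.1 CPM to 5.08 and 5.38 CPM in CoCl2 replicates 2 and 3. miR-10401-3p fell by 1.09 ± 0.23 from 7.09 CPM. The calls of miR-16-1-3p and miR-10401-3p were lost without CoCl2 replicates 2 and 3, respectively.

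The other 10 miRNAs called lower had means below 50 counts and 0 counts in CoCl2 replicate 1. miR-1247-3p had 23, 8 and 12 counts in the controls and 1 count in each of CoCl2 replicates 2 and 3, and miR-4455 had 18, 19 and 16 counts against 3 and 0, so their fitted values (-3.36 and -3.13) are set by single counts. The minor arms miR-942-3p, miR-181b-2-3p, miR-26a-1-3p and miR-128-1-5p had log2 fold changes of -1.66, -1.58, -1.57 and -1.15, and those of miR-181b-2-3p, miR-128-1-5p and miR-1247-3p no longer passed without CoCl2 replicate 2, nor did that of miR-19b-1-5p. miR-573, miR-6873-3p and miR-940 were called only with replicate 1 in the fit, where each had 0 counts. Without it their FDR values were 0.051, 0.080 and 0.086. One miRNA, miR-379-5p, was called only without replicate 1 (1.83, FDR 0.039), on 2, 7 and 3 counts against 10 and 13. Most miRNAs of these low counts were named after their values were seen.

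Below the fold limit, the shifts of more abundant miRNAs were smaller. miR-215-5p, a p53-regulated miRNA of the intestinal epithelium, had a log2 fold change of 0.69 (FDR 0.0039) from 2578 CPM, and 0.59 without CoCl2 replicate 1. miR-182-5p had one of 0.49 (FDR 0.042) from 3893 CPM, and 0.59 without that library. miR-615-3p fell by 0.87 from 731 CPM, miR-194-3p fell by 0.81 from 158 CPM, let-7b-3p fell by 0.96 from 60.4 CPM, and let-7a-3p fell by 0.53 from 624 CPM. miR-615-3p, both let-7 arms and miR-224-5p are in no list and were named after their values were seen. Families are set here against the 12.2% of all tested miRNAs that passed the FDR threshold. In the miR-26 family 3 of 5 passed lower (2 without CoCl2 replicate 1), all of them minor arms. Its major arms miR-26a-5p and miR-26b-5p, at 19142 and 6312 CPM in the controls, had log2 fold changes of 0.02 and 0.02. In the miR-23-27-24 clusters 1 of 11 passed higher and 2 lower, and in the miR-221-222 cluster 1 of 4 passed lower. These were minor arms as well. Of 9 let-7 major arms, 9 miR-200 family arms, 7 miR-29 arms and 6 miRNAs linked to NF-kB and inflammation, 0 passed, and with so few members a count of 0 is no result about a family.

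CoCl2 replicate 1 could be read as a separate library only where its depth allowed. Of the miRNAs with FDR below 0.05 in the fit without it, 17 had at least 3 expected counts at both the control level and the level of CoCl2 replicates 2 and 3. In replicate 1 all 17 lay on the same side of the control mean as in replicates 2 and 3, and its counting interval lay clear of the control mean for 5 of them: miR-210-3p, miR-4521, miR-22-3p, miR-215-5p and miR-182-5p. miR-210-3p and miR-4521 were the called miRNAs among the 17. miR-224-5p stood at 4402 CPM in replicate 1, close to the control mean of 4337 CPM and below the 6054 CPM of replicates 2 and 3. miR-215-5p stood at 5197 CPM, above both 2578 and 3816 CPM. In Caco-2 miR-215-5p averaged 47059.5 CPM in controls and 41982.8 CPM with CoCl2. The part of the Caco-2 excess of replicate 1 in its value was not tested.

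**Figure D3:**
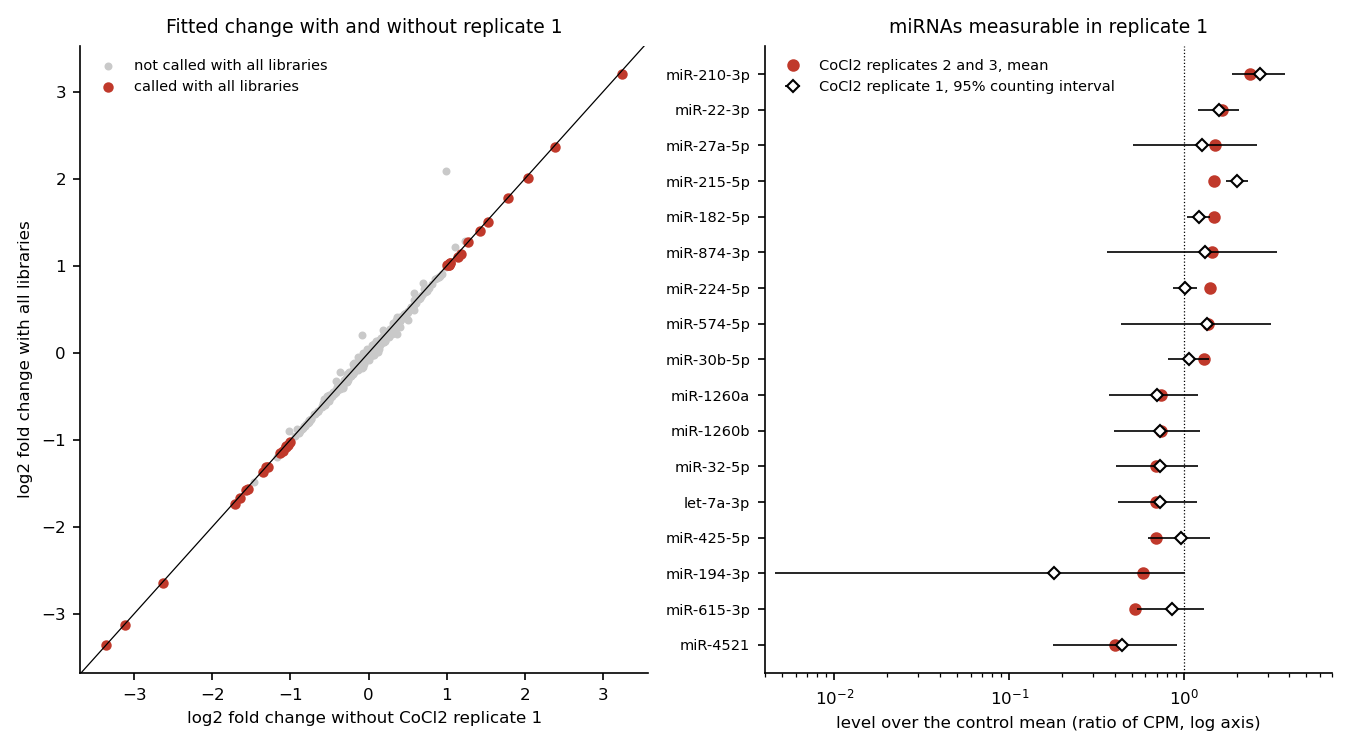
Left, fitted log2 fold change with all libraries (y axis) against that without CoCl2 replicate 1 (x axis) for each miRNA, with the line of equality; called miRNAs in red lie on it. Right, level over the control mean (x axis, ratio, log axis) of the 17 miRNAs measurable in CoCl2 replicate 1, with replicates 2 and 3 as filled points and replicate 1 as diamonds with exact 95% intervals; the dotted line is the control mean.

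Of the called arms whose partner was also tested, 14 were minor and 4 were major arms, and the difference was smaller in the subsets below. In 140 hairpins both arms were tested, and the arm with the higher CPM in OD replicates 1 and 2 was taken as the major arm, so that the choice did not use the compared libraries. Among the minor arms 9 were called lower and 5 higher, and among the major arms 0 were called lower and 4 higher, against 2.60% lower and 2.27% higher over all miRNAs tested. The minor arm had the lower log2 fold change in 96 of 140 hairpins (95 of 140 without CoCl2 replicate 1), and the medians were -0.16 for minor and 0.04 for major arms. In the hairpins of miR-26a-1, miR-181b-2, miR-16-1, miR-191 and miR-128-1 the major arms stood at 19142, 2204, 1126, 6012 and 3013 CPM in the controls. Their log2 fold changes lay between -0.19 and 0.02, and the lowest FDR was 0.29. All but miR-191-5p can also come from a second hairpin (MIR26A2, MIR181B1, MIR16-2 and MIR128-2), so their level is not that of these hairpins alone. The 140 hairpins held 134 different major arms, and in 25 the major arm lies in more than 1 hairpin. In the other 115 the minor arm was the lower in 75. There 3 minor arms were called lower and 4 higher, and 0 major arms lower and 4 higher, against the same 2.60% and 2.27%. The minor arms were mostly at low levels, where counting error is larger. In the 95 hairpins whose minor arm had at least 5 CPM in the OD libraries, the minor arm was the lower in 66. There 3 minor arms were called lower and 2 higher, and 0 major arms lower and 2 higher. With so few calls, these subsets give no result about minor arms.

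**Figure D4:**
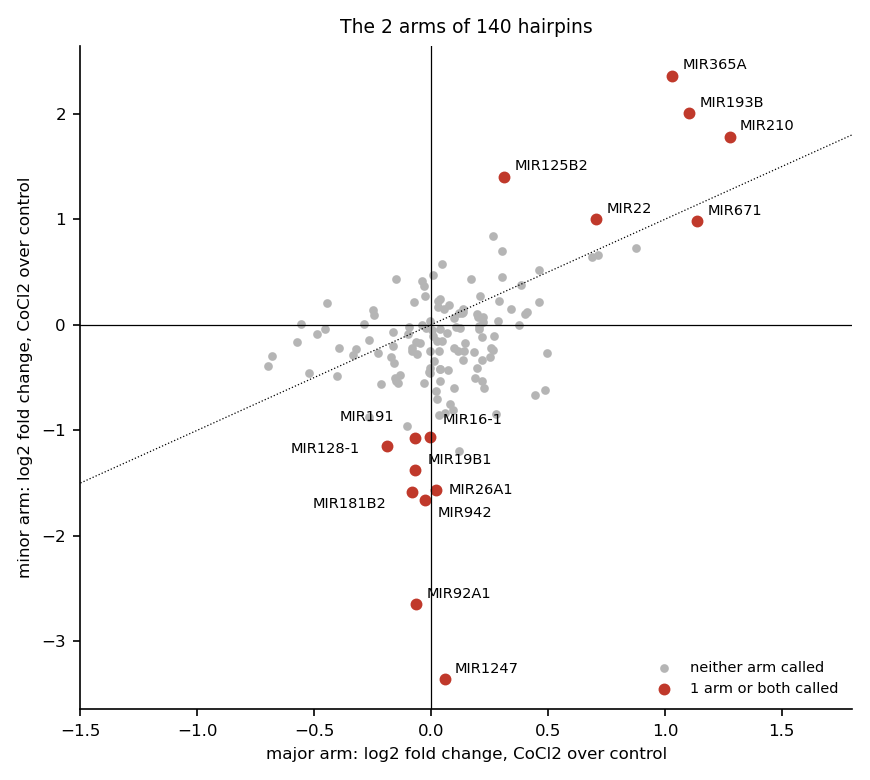
Log2 fold change with CoCl2 of the minor arm (y axis) against the major arm (x axis) of 140 hairpins; red points are hairpins with 1 or both arms called, and the dotted line marks equal change. MIR92A1, MIR26A1, MIR942, MIR181B2 and other hairpins lie below the x axis near 0 on it, and MIR365A, MIR193B and MIR210 lie at the upper right.

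The transcripts that carry the miRNAs were read from the mRNA libraries of the same treatments, in which 41.3% of 15812 genes were called. Host genes and miRNA machinery were called at a share near that background (31 of 86), so the share is no result about them. Over 120 pairs of a miRNA and its host (63 hosts), the log2 fold changes of the 2 had Pearson's r of 0.61. The r was 0.81 for 36 minor arms and 0.67 for 55 major arms, and 0.77 and 0.60 when hosts added for their called miRNAs were left out. These are descriptions across genes, in which several miRNAs share a host and all share the libraries. The host fell with its called minor arm for CTDSPL (miR-26a-1-3p), TTF2 (miR-942-3p) and DLEU2 (miR-16-1-3p), at -1.47, -1.33 and -1.26. DIO3OS, host of miR-1247-3p, fell as well (-1.73), on at most 13 counts in any library. DALRD3, host of miR-191, had -0.03, and -0.66 with scaling by library size alone, and was called with neither. Some other host changes had no called miRNA beside them. The host of miR-29c, MIR29B2CHG, had a log2 fold change of 2.48 and miR-29c-3p 0.20, and EGFL7 had 2.56 and miR-126-3p 0.26. GABRE had 1.96 and miR-224-5p 0.37, and MIR194-2HG fell by 1.33 while miR-192-5p had 0.12. Other arms beside these hosts differed. Below the fold limit, miR-126-5p, the minor arm at EGFL7, had 0.85 (FDR 0.027). miR-194-3p, of the same cluster as miR-192, fell by 0.81 (FDR 0.0040). miR-29c-5p and miR-452-5p, beside MIR29B2CHG and GABRE, had 0.07 and 0.20. With scaling by library size alone, the median of all mRNAs moved from -0.03 to -0.66, and each host named here kept its sign.

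**Figure D5:**
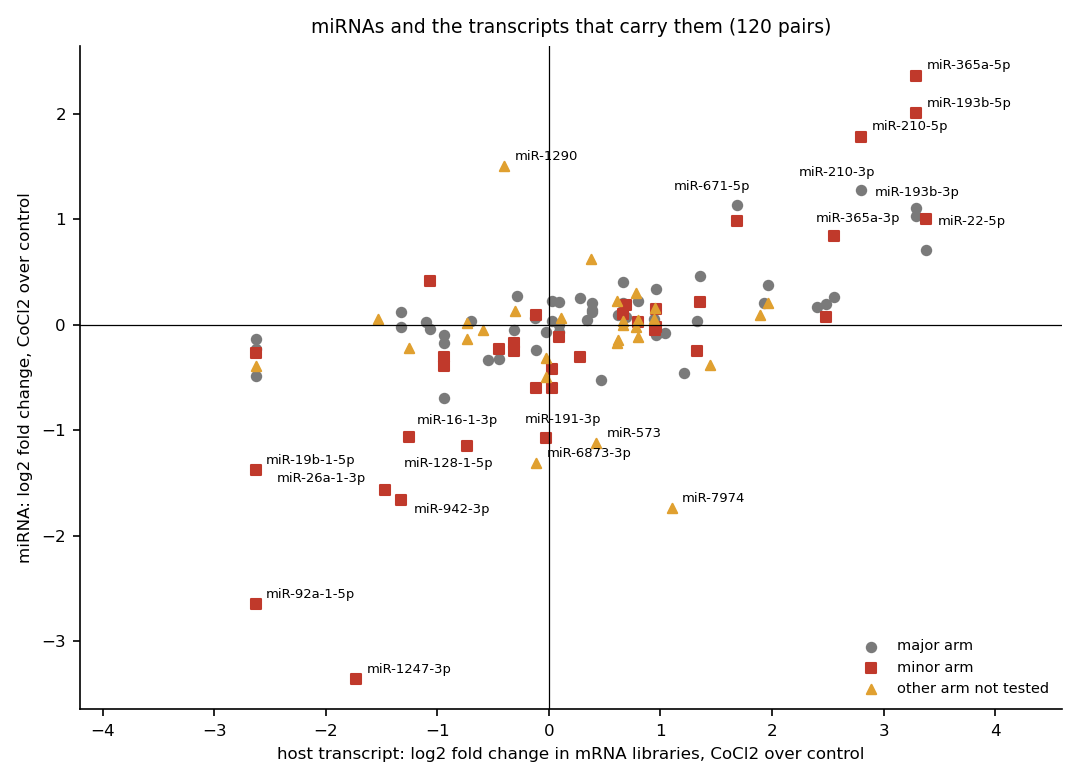
Log2 fold change with CoCl2 of 120 miRNAs (y axis) against that of the transcript that carries each, from the mRNA libraries (x axis). Squares are minor arms, circles major arms and triangles miRNAs whose other arm was not tested; called miRNAs are named. Minor arms of MIR17HG lie at the lower left and those of MIR193BHG at the upper right, while miR-7974 and miR-1290 lie opposite to their hosts.

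Of 22 tested genes that make or use miRNAs, 4 were called higher and 0 lower, against the same 41.3%. They were TNRC6B, a silencing partner of Argonaute (1.49), TUT7, a terminal uridylyltransferase (1.73), the exonuclease XRN1 (1.42) and ZSWIM8, which targets Argonaute for degradation at some miRNAs (1.90). With scaling by library size alone, 2 were called higher (TUT7 and ZSWIM8) and 2 lower (TUT4 at -1.09 and PARN at -1.07), and TNRC6B and XRN1 lost their calls. DROSHA and AGO2 had log2 fold changes of 0.46 and 0.67, which became -0.18 and 0.04 with that scaling. DICER1 had -0.09 and XPO5 -0.16.

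The direct contrast of CoCl2 with OD in HT-29 cells asked where the 2 agents differed. It used the same CoCl2 libraries, with 14 of 616 called (2.27%) and 13 without CoCl2 replicate 1. Values of OD replicate 3 rest on few counts: its 6.50 CPM below stand for 3 counts. miR-210-3p showed no detectable difference (log2 difference -0.0031 ± 0.14 SE, FDR 0.996), and stood at 1054.5, 914 and 685 CPM with OD. miR-210-5p was higher with CoCl2 than with OD (1.40 ± 0.24, FDR 0.00087), where it stood at 4.93, 3.70 and 6.50 CPM. miR-100-5p stood at 1.72, 2.77 and 6.50 CPM with OD and was higher with CoCl2 (3.42 ± 0.27, FDR 1.6e-07, and 3.44 without CoCl2 replicate 1), and miR-365a-5p was higher by 1.27 ± 0.20 (1.28 without it). miR-92a-1-5p was lower with CoCl2 by 1.13 on the log2 scale (FDR 0.010), at 12.4, 8.44 and 15.2 CPM with OD. miR-4521 was lower with OD, at 99.8, 95.2 and 58.5 CPM, than with CoCl2 (0.98 ± 0.15, FDR 0.00040). miR-7974 did not pass the threshold (-0.42 ± 0.22, FDR 0.41). Each agent was given at 1 dose. The OD medium carried DMSO, and the labels do not say whether the CoCl2 medium did. A difference in solvent therefore cannot be told apart from one between the agents.

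The response of HT-29 was set against that of differentiated Caco-2 by an interaction test over 18 libraries, in which 10 of 675 miRNAs were called (1.48%). Line and culture state cannot be told apart in it. All values of this comparison are from that joint fit, whose HT-29 fold changes differ slightly from those above. miR-100-5p had log2 fold changes of 3.11 in HT-29 and -0.22 in Caco-2, a difference of 3.33 ± 0.28 (FDR 1.9e-08), and in Caco-2 it stood between 24.0 and 31.4 CPM in control and CoCl2 libraries alike. miR-92a-1-5p had -2.74 in HT-29 and -0.34 in Caco-2, a difference of -2.39 ± 0.31 (FDR 2.6e-05). miR-671-5p differed by 1.86 ± 0.25, with -0.81 in Caco-2 (FDR 0.0080), and with -0.47 there without Caco-2 control replicate 1. The difference of miR-193b-5p (2.17 ± 0.47) did not pass without Caco-2 control replicate 1 (1.79, FDR 0.079). miR-210-3p rose in both lines, by 1.19 and 0.50, and the difference of 0.69 ± 0.18 (FDR 0.035) had an FDR of 0.19 without HT-29 CoCl2 replicate 1. It did not pass either when any 1 Caco-2 control or CoCl2 library was left out (FDR 0.090 to 0.322). miR-4521 and miR-7974 fell in both, and the differences did not pass the threshold. Leaving out Caco-2 control replicate 1 left 6 calls, as did leaving out Caco-2 CoCl2 replicate 1, and leaving out Caco-2 control replicate 2 gave 21.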

How the data were processed

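Small RNA libraries (NEBNext kit, single-end reads of 50 nt) of HT-29 cells were used as the raw counts per mature miRNA deposited by the authors; the aligner and the miRNA annotation behind them are not given in the sources used here. The submitters' processing notes name GRCh38.p13, cutadapt 2.10, STAR 2.7.5b, Bowtie 1.1.1 and edgeR 3.30.3, without roles. A second deposited table holds log2 values for 283 HT-29 miRNAs, which equal log2(TMM-scaled CPM + 1) of the counts and served as an alternative. All per-sample columns were matched to samples by title (0 left over).

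Counts were tested with edgeR 4.0.16 in R 4.3.3 (TMM, filterByExpr, glmQLFit and glmQLFTest, two-sided, Benjamini-Hochberg over all miRNAs tested) in 1 fit of the 9 HT-29 libraries, or of 18 libraries for the difference between lines. A miRNA was called at FDR below 0.05 and a log2 fold change beyond 1. The HT-29 miRNA fit was also run on simulated counts, in which CoCl2 replicate 1 differed from the other CoCl2 libraries in depth alone. p-values weigh a difference against the spread between these cultures, which was estimated from all libraries of a fit together, OD included. mRNA counts deposited by the authors were tested alike, and whether their counting used strand is not stated, so overlapping genes are uncertain. limma 3.58.1 and DESeq2 1.42.0 were alternatives. Intervals for CoCl2 replicate 1 are exact (Clopper-Pearson) at 95%. Whether replicate numbers pair CoCl2 libraries with others could not be decided, since deviations were taken from group means that include the shallow CoCl2 replicate 1. Those of same-numbered CoCl2 and control libraries correlated at -0.02, -0.04 and 0.02 over all miRNAs and at 0.04, 0.16 and -0.39 over the abundant ones. Those of CoCl2 and OD correlated at -0.04, 0.08 and -0.10 over all. Control and OD libraries, which are compared nowhere here, deviated together by number over the abundant miRNAs (0.73, 0.70 and 0.22).

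Named were miRNAs in 30 lists written from general knowledge, up to 12 highest and 12 lowest called with and without CoCl2 replicate 1 with a mean of 50 counts and no overlap between groups, the 10 most abundant in controls, up to 5 called only with or only without that library, those sharing a hairpin, seed or cluster (10 kb) with them, up to 5 with the lowest FDR against OD and between the lines, and listed hosts and machinery genes; hosts of called miRNAs were added later. Exceptions are marked. The members and lists were chosen with earlier results of these data known. RefSeq sequences matched 543 of 616 tested miRNAs; hosts are from GENCODE.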

Additional observations from a re-analysis of the deposited data

Results flagged for a closer look

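The response to CoCl2 differed between HT-29 and differentiated Caco-2 cells by the interaction test for 8 of the miRNAs named, in log2 units of HT-29 less Caco-2: miR-100-5p by 3.33, miR-193b-5p by 2.17, miR-671-5p by 1.86, miR-365b-3p and miR-365a-3p (the same reads) by 1.31 and 1.31, miR-22-5p by 1.28, miR-671-3p by 1.17 and miR-92a-1-5p by -2.39. Of the 7 that were higher in HT-29, miR-671-5p passed the FDR threshold in Caco-2 (-0.81, FDR 0.0080). miR-365a-3p and miR-365b-3p rest on Caco-2 control replicate 1: miR-365a-3p stood at 628, 242 and 270 CPM in the Caco-2 controls and at 298 to 302 CPM with CoCl2. Without that library its Caco-2 fold change turned from -0.37 to 0.31, and its difference fell to 0.69 (FDR 0.092). The difference of miR-193b-5p then did not pass either (1.79, FDR 0.079). The Caco-2 fold change of miR-22-5p moved from -0.37 to -0.04, and that of miR-671-5p from -0.81 to -0.47. The difference of miR-671-3p did not pass without Caco-2 CoCl2 replicate 1 (FDR 0.080) or replicate 3 (FDR 0.052). Line and culture state cannot be told apart in these values, and the HT-29 libraries are those in which the miRNAs were called.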

How the results depend on the processing

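The low depth of CoCl2 replicate 1 and the test limit these counts. Of 30 miRNAs called, 14 higher and 16 lower, DESeq2 called 8 (5 and 3; 73 adjusted p-values not given by the tool), and 21 without CoCl2 replicate 1, of which 10 were lower. limma-trend called 7 on log2(CPM + 1) (4 and 3), 6 on log2(CPM + 0.5) (4 and 2), 7 on the deposited log2 values (5 and 2), and 13 on log2(CPM + 1) without replicate 1 (9 and 4). The minimum count of 50 left 13 (6 and 7; 393 tested), and no fold limit gave 75 (29 and 46). Scaling by library size alone gave 7 higher, and 8 higher without replicate 1. The 8 that DESeq2 called with all libraries were all among its 21 without replicate 1. They were miR-100-5p, miR-210-3p, miR-365a-3p, miR-365b-3p and miR-671-5p, called higher, and miR-7974, miR-92a-1-5p and miR-4521, called lower. On log2(CPM + 1) and log2(CPM + 0.5), limma-trend reversed miR-193b-3p (-0.74 and -1.05) and miR-12136 (-0.34 and -0.61), both at 0 counts in replicate 1. Leaving out 1 library gave 22 to 32 calls, 12 to 16 higher and 10 to 17 lower, 10 to 14 against OD, 6 to 21 between the lines (6 without Caco-2 control replicate 1 or CoCl2 replicate 1, 21 without Caco-2 control replicate 2, 7 to 12 over the HT-29 libraries) and 30 to 32 of 86 hosts and machinery genes. Whether replicate numbers pair CoCl2 with control or OD libraries could not be decided. The fit with the replicate block, in which miR-940 lost its call, gave 30 calls (31 without CoCl2 replicate 1). It gave 16 against OD, 8 between the lines and 31 hosts and machinery genes. Against OD, 14 calls became 2 with DESeq2, 2, 2 and 2 with limma-trend on the 3 scales, 9 with the minimum count of 50 and 33 with no fold limit. Between the lines, 10 calls became 16 with no fold limit and 16 with limma-voom, 10 with DESeq2, and 0 and 0 with limma-trend on both scales, where 53 and 53 had an unadjusted p under 0.05. Of 996 recomputed log2 fold changes of 45 named miRNAs, 804 kept direction and side of the FDR threshold, 178 lost it, 10 gained it and 4 reversed. The alternative with deposited log2 values was not run between the lines. Beyond the alternatives' own construction, the cause was not tested.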
